A study of Arabidopsis thaliana with 6 samples.

Results

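Among the CG regions whose methylation the authors called different between rbp-ko-1 and Col-0, those that share DNA with a CHG or CHH region called in the same comparison were examined. In plants cytosines are methylated in 3 sequence contexts, CG, CHG and CHH, where H stands for A, C or T. The members are the CG regions on chromosomes 1 to 5 that overlap a CHG or CHH region by at least 1 bp, leaving out the copy of the mitochondrial genome on chromosome 2 (3200000 to 3600000). Of 2615 nuclear CG regions outside that copy, 241 met this rule. The whole table held 9213 regions, 2909 of them in CG.

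The data come from whole-genome bisulfite sequencing of genomic DNA from Arabidopsis thaliana plants at an age of 26 days, under a day of 16 h light and 8 h dark. Col-0 is the wild-type accession, and rbp-ko-1 (KO27) is a mutant of RBP45D, an RNA-binding protein gene that the series title links to flowering under heat and to RNA-directed DNA methylation. Each genotype had 3 libraries. The mutant is represented by 1 line, so the mutation and anything else particular to the line cannot be told apart, and nothing in the labels says whether libraries came from separate plants. Every level below is the authors' mean of a genotype over a region. No values per library, read counts or coverage were given, so the depth is unknown, levels carry no error, and whether a difference exceeds the spread between libraries could not be tested. Regions are not replicates of a genotype, so comparisons between sets of regions are given as counts and medians with no test.

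The contexts are maintained by different enzymes. The methyltransferase MET1 with its VIM cofactors copies CG methylation onto the new strand after replication. CMT3 maintains CHG methylation together with histone H3 lysine methylation. CHH methylation has no methylated partner on the other strand and is set anew by DRM2, guided by small RNAs in RNA-directed DNA methylation, or by CMT2 in heterochromatin. CG methylation alone is common inside expressed genes, while methylation of CG, CHG and CHH together is typical of transposons and repeats.

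Most of the overlapping CG regions were less methylated in rbp-ko-1. Of the 241 members, 203 (84.2%) were lower and 38 (15.8%) higher, where 72.4% of all nuclear CG regions outside the chromosome 2 copy were lower and 27.6% higher. Among the 2374 CG regions with no non-CG overlap, 1690 (71.2%) were lower. The share of regions with a large difference was alike in both sets. An absolute difference of 20 percentage points or more was found at 129 members (53.5%), where 51.8% of all nuclear CG regions reached it. Among higher regions the gains at members were smaller, with a median of 13.9 points against 23.3 at those with no non-CG overlap. Gains under 10 points were found at 18 of 38 higher members (47.4%) and at 64 of 684 others (9.36%).

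Among lower regions, the Col-0 level differed more between the sets than the size of the difference did. Lower members had a median CG level of 71.8% in Col-0 (quartiles 44.9 and 84.0%) against 41.6% in rbp-ko-1 (12.5 and 65.1%), with a median difference of -23.2 points. Lower CG regions with no non-CG overlap had medians of 27.7% and 3.54%, with a median difference of -19.2 points. A Col-0 level of 50% or more was found at 144 of the 203 lower members (70.9%) and at 404 of the 1690 others (23.9%). In rbp-ko-1, CG methylation stood under 10% at 43 lower members (21.2%) and at 1067 of the others (63.1%). A level of 50% or more remained in rbp-ko-1 at 83 lower members (40.9%) and at 101 of the others (5.98%). By their medians, lower members thus went from high to intermediate levels, and the other lower regions from lower levels to under 10%. Single lower members ended anywhere from almost none to high levels. The median length was 119 bp with 12 CG cytosines for members and 93 bp with 10 for the others. A longer region is more likely to meet the overlap rule, and the part of length in these differences was not tested.

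**Figure D1:**
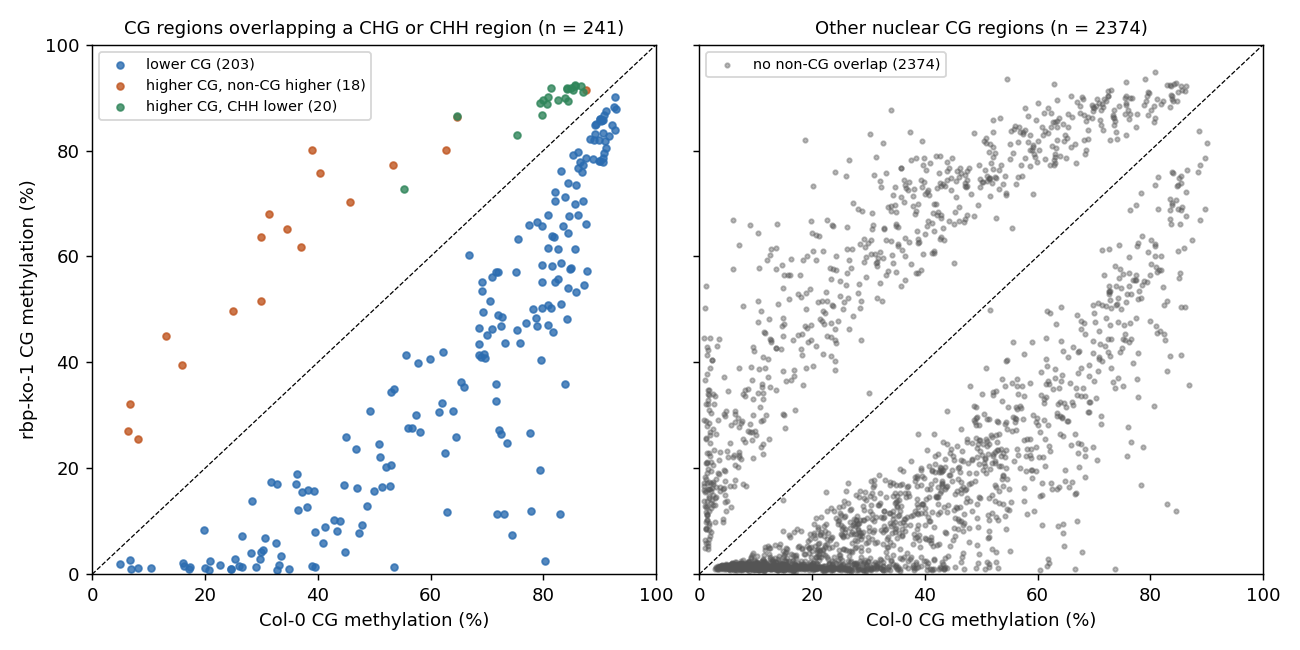
Mean CG methylation of each region in Col-0 (x axis, %) against rbp-ko-1 (y axis, %), with 1 point per region; the left panel holds the 241 members and the right panel the 2374 nuclear CG regions with no non-CG overlap, and the dashed line marks equal levels. Lower members lie mostly at the right, above 50% in Col-0, while the others crowd at the lower left; the table lists only called regions, and 35 of the 203 lower and 18 of the 38 higher members differed by less than 10 points.

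CHH was the usual overlapping context. A CHH region overlapped 213 members (88.4%) and a CHG region 67 (27.8%). In detail, 174 members overlapped CHH regions only, 28 CHG regions only, and 39 both. Of the 5628 nuclear CHH regions 212 (3.77%) overlapped a member, and of the 319 nuclear CHG regions 72 (22.6%). The overlapping CHH regions were mostly larger than the CG region, with a median length of 289 bp, and 99 of the 216 CG and CHH pairs (45.8%) had the CG region wholly inside. In CHG only 10 of 73 pairs (13.7%) did, and 21 (28.8%) had the CHG region inside the CG region.

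Nearly all non-CG regions that overlapped a lower member were lower too, which for CHH was close to the share over all CHH regions. Each of the 182 lower members with a CHH partner had all its CHH partners lower, and 97.3% of all nuclear CHH regions were lower. For CHG it was 56 of 57 lower members, and 84.6% of all nuclear CHG regions were lower. All contexts were read in the same libraries and from the same DNA, so the contexts are not independent evidence of direction. In the 184 pairs in which both regions were lower, the CHH median was 7.30% in Col-0 against 1.78% in rbp-ko-1. In the 62 such CHG pairs it was 30.8% and 7.67%.

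The share of methylation that remained in rbp-ko-1 was smaller in CHH than in CG. The median of rbp-ko-1 over Col-0 was 0.267 for CHH and 0.620 for the CG region of the same pairs, and the CHH ratio was the smaller at 165 of 184 pairs (89.7%). In CHG pairs the medians were 0.368 and 0.477, and the CHG ratio was the smaller at 55 of 62 (88.7%). In points the order was the other way round, with CG levels higher than non-CG levels in Col-0. The CG difference was the larger at 168 of 184 CHH pairs (91.3%) and at 51 of 62 CHG pairs (82.3%).

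The degree of CG loss ran with that of CHG more closely than with that of CHH. Across the pairs in which both regions were lower, Spearman's rho between the CG ratio and the non-CG ratio was 0.886 in CHG (n = 62) and 0.605 in CHH (n = 184). For the differences in points, rho was 0.696 in CHG and -0.0419 in CHH. These values describe pairs that share libraries, depth and place in the genome. The CHG and CHH pairs are not the same set of members. Their partners also differed in median length (169.5 bp in CHG, 289 bp in CHH) and in median rbp-ko-1 level (7.67% and 1.78%). The part of this in the rho values was not tested.

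**Figure D2:**
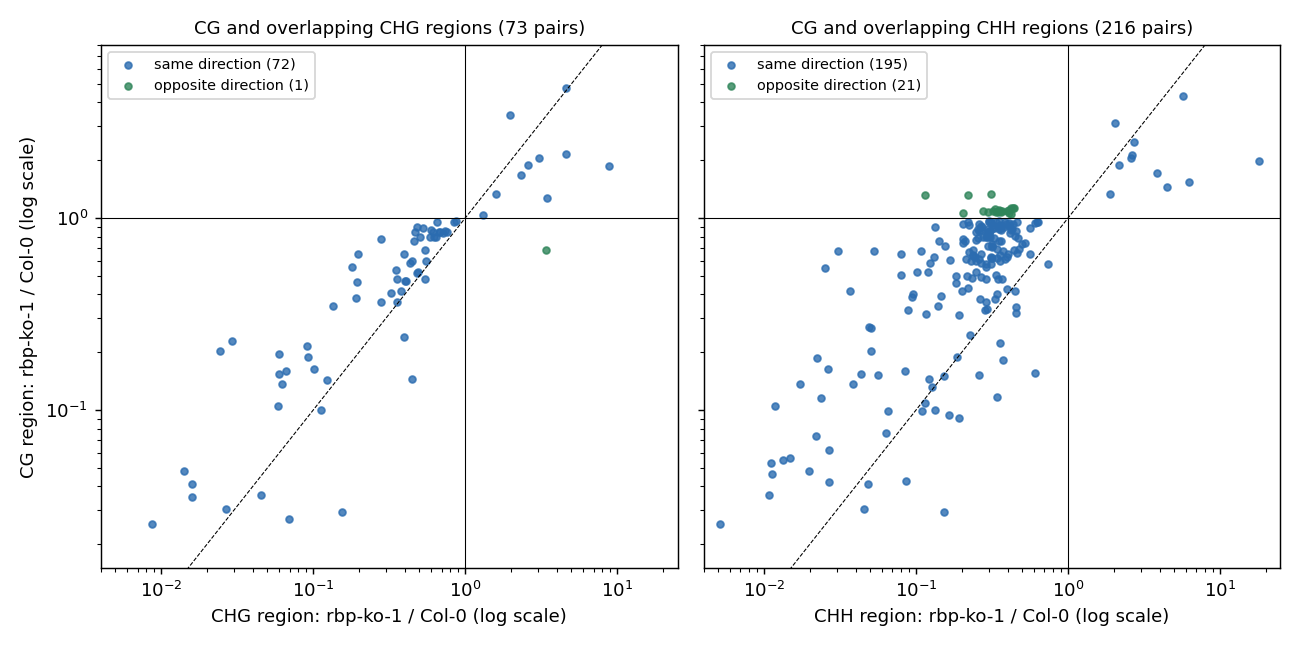
Methylation in rbp-ko-1 divided by that in Col-0 for each CG region (y axis, log scale) against the ratio in the overlapping CHG region (left, 73 pairs) or CHH region (right, 216 pairs; x axes, log scale); the solid lines mark a ratio of 1 and the dashed line equal ratios. Most points lie at lower left, above the dashed line; 21 CHH pairs and 1 CHG pair were of opposite direction (green).

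Lower members ran from almost complete to slight CG loss. At 20 members (9.85% of the lower ones) less than 0.1 of the Col-0 CG level remained, with medians of 27.8% in Col-0 against 1.36% in rbp-ko-1. Their CHH partners had medians of 4.63% and 0.183%, and their CHG partners 23.2% and 0.439%. The medians of all contexts were thus close to 0 in rbp-ko-1 there, with a CHG partner present at only 8 of the 20. At the other end, 50 members (24.6%) kept 0.8 or more of their CG methylation, with medians of 89.1% and 78.9%. Their CHH partners still went from a median of 8.84% to 3.05%, a median ratio of 0.327. Between these ends lay 61 members that kept 0.1 to 0.5 (medians 46.97% and 12.2%) and 72 that kept 0.5 to 0.8 (74.2% and 48.5%). The median CHH ratio over the 4 classes, from the largest to the smallest CG loss, was 0.0268, 0.184, 0.287 and 0.327, and the median CHG ratio 0.0213, 0.135, 0.484 and 0.674. A CHG partner was present at 8 of 20, 24 of 61, 15 of 72 and 10 of 50 members. Members within 3 Mb of a centromere numbered 6, 16, 28 and 28 in these classes.

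The 39 members that overlapped both a CHG and a CHH region were alike in direction. In all 39 every overlapping region had the direction of the CG region, with 36 lower and 3 higher. The 36 lower ones had median CG levels of 71.7% in Col-0 against 17.6% in rbp-ko-1. Lower members with CHH partners only, 146 in number, had 75.3% and 47.2%. The 21 lower members with CHG partners only had 47.9% and 17.1%. The median differences of these 3 sets were closer, with -26.6, -21.8 and -27.8 points in the same order. For the 36, the gap between the medians of the levels thus overstates the typical loss.

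The largest losses of this kind lay in promoters, as the authors' annotation gives them. At the promoter of NPR1 (AT1G64280), a salicylic acid receptor and regulator of defence genes, CG methylation was 71.8% in Col-0 against 11.4% in rbp-ko-1 over 25 CG cytosines (TAIR10 chromosome 1, 23856241 to 23856568). The CHG region there had 19.2% and 1.27%, and the CHH region 2.62% and 0.222%. Methylation of this promoter was thus mainly CG and CHG in Col-0, and little of any context was left in rbp-ko-1. AT4G04601, an unknown protein, had the largest CG difference of all members, -77.8 points at its promoter (chromosome 4, 2311254 to 2311519). Its CHG region had 31.6% and 0.842%, and its CHH region 7.31% and 0.331%.

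The promoter of the metal-nicotianamine transporter gene YSL2 (AT5G24380) had a CG difference of -71.6 points (chromosome 5, 8322515 to 8322582). The CG region lay inside a CHH region of 454 bp with 10.3% in Col-0 against 0.178% in rbp-ko-1, and inside a CHG region of 226 bp with 30.7% and 1.90%. At the cysteine protease gene RDL3 (AT3G43960) the CG difference was -66.9 points at the promoter (chromosome 3, 15777184 to 15777298). CHG methylation around it was 35.8% and 4.03%, and CHH methylation 3.93% and 0.520%. In each of these promoters the non-CG levels in rbp-ko-1 were low, while the CG level was 11.4% at YSL2 and 7.48% at RDL3.

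At 4 more members lower in all contexts, CG levels in Col-0 were below those of the promoters above. EHD2 (AT4G05520), which encodes an EH-domain protein of endocytosis, had CG levels of 39.0% and 1.61% over 6 cytosines (chromosome 4, 2804069 to 2804159), CHG levels of 27.2% and 0.434% and CHH levels of 4.26% and 0.206%. The long non-coding RNA gene AT4G05720 had a long CG region, 589 bp in its promoter (chromosome 4, 5987687 to 5988275), with 47.3% and 7.77%. Its CHG region had 30.9% and 3.15% over 73 cytosines, and its CHH region 6.76% and 0.177% over 183. At UCNL (AT3G20830), a protein kinase gene, promoter CG methylation was 43.4% and 8.21% (chromosome 3, 7286580 to 7286859). CHG methylation was 39.8% and 3.69% there, close to the CG level in Col-0, and the CHH region had 11.9% and 2.22%. RAD51C (AT2G45280) acts in recombination and GCP1 (AT2G45270) in tRNA modification. The CG region at these neighbours (chromosome 2, 18669574 to 18669763) was annotated to an exon, a 3′ UTR and a promoter. It lay wholly inside both its CHG and its CHH region and was the member with the smallest CG ratio, 0.0254. CG levels were 53.4% and 1.36%, CHG levels 48.6% and 0.424% and CHH levels 28.8% and 0.148%.

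AT5G28410, an unknown protein, had no promoter annotation and lay in an exon, an intron and the end of its gene. CG methylation was 72.5% in Col-0 against 26.5% in rbp-ko-1 (chromosome 5, 10359264 to 10359537), inside a CHH region of 2508 bp with 11.03% and 3.17%. Its CHG region had 35.5% and 12.6%, so that part of the methylation of every context remained.

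**Figure D3:**
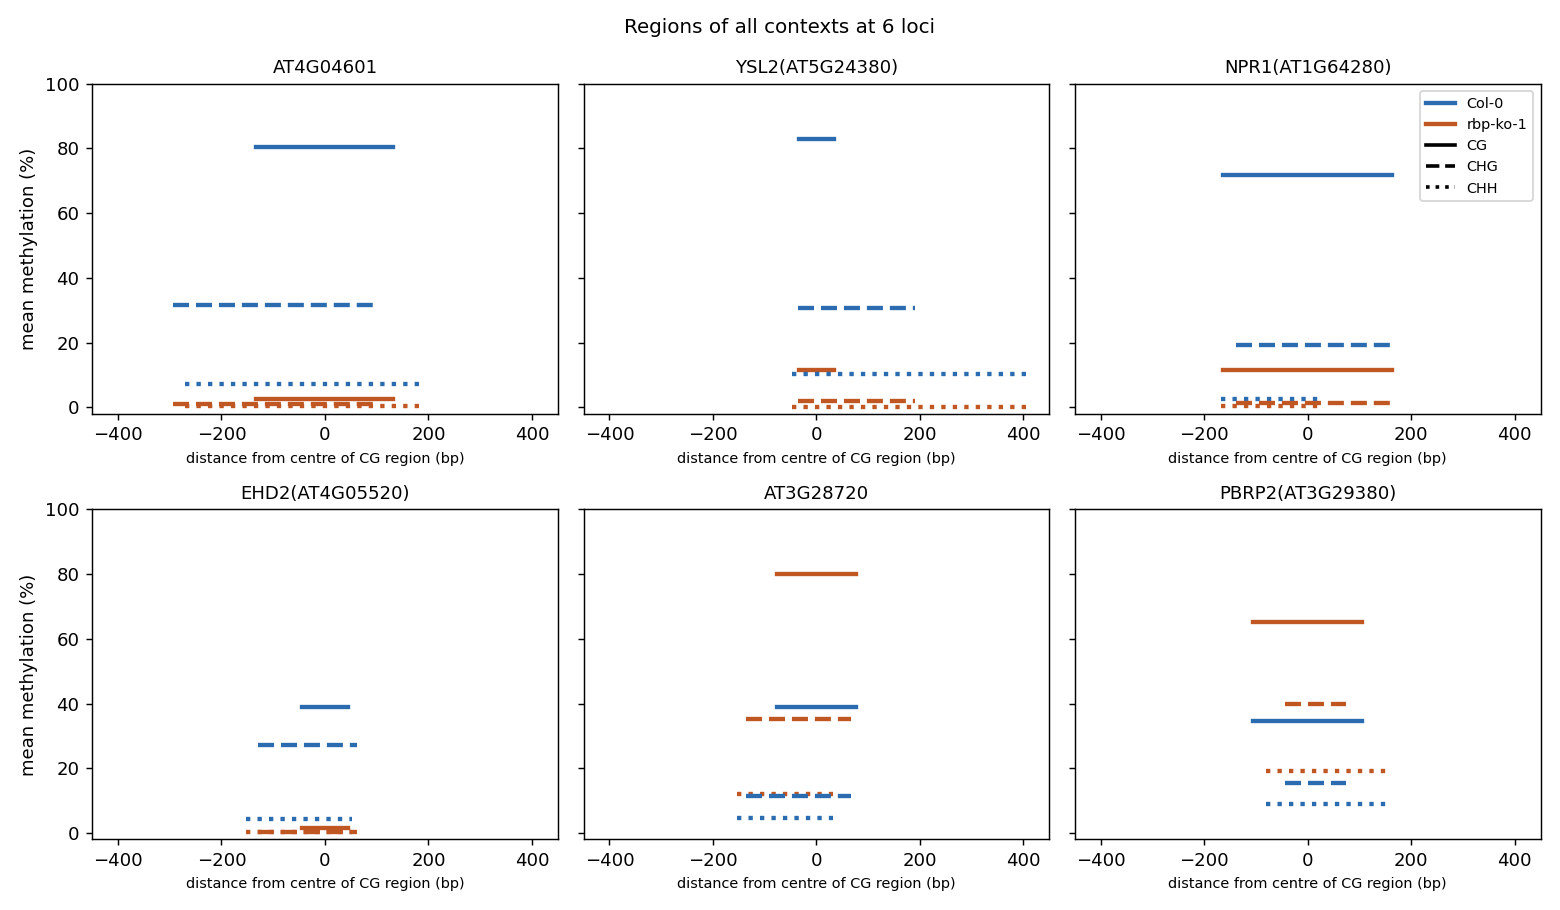
Mean methylation (y axis, %) of the CG (solid), CHG (dashed) and CHH (dotted) regions at 6 loci in Col-0 (blue) and rbp-ko-1 (orange), each drawn over its extent as distance from the centre of the CG region (x axis, bp). At AT4G04601, YSL2, NPR1 and EHD2 all contexts were lower in rbp-ko-1, and at AT3G28720 and PBRP2 all were higher.

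Some large CG losses came with a CHH or a CHG region alone. FC1 (AT5G26030), a ferrochelatase gene of heme synthesis, had promoter CG levels of 73.0% in Col-0 against 11.4% in rbp-ko-1 (chromosome 5, 9095565 to 9095792). Its CHH region had 22.2% and 13.5%, so that here CHH methylation kept a larger share of its Col-0 level than CG methylation did. A promoter shared by the microRNA gene MIR5651 (AT3G07515), AT3G07505 and AT3G46617 had CG levels of 71.5% and 32.7% (chromosome 3, 17176807 to 17176940) and CHH levels of 4.55% and 0.837%. An intron of the long non-coding RNA gene AT3G09445 had CG levels of 62.6% and 22.9% and CHG levels of 36.5% and 10.2% (chromosome 3, 22370687 to 22370738).

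Of the 5 members with the highest CHH methylation in Col-0, 4 kept more than 0.5 of it, and the fifth was the RAD51C and GCP1 region above. In the promoter of AT1G70870, annotated as a polyketide cyclase and lipid transport protein, the CHH region had 42.3% in Col-0 against 31.3% in rbp-ko-1, and the CG region 45.01% and 25.8% (chromosome 1, 26722470 to 26722730). CHH methylation was thus almost as high as CG methylation in Col-0. In an exon and intron shared by AT3G22125 and AT3G22142, 2 CHH regions had 42.2% and 25.7%, and 41.5% and 25.9%. The CG regions inside them were close to full methylation, with 92.9% and 87.8% (chromosome 3, 7805675 to 7805812), and 92.5% and 88.3% (7805186 to 7805260). At the promoter of AT4G18440, an adenylosuccinate lyase gene of purine synthesis, CHH levels were 30.8% and 17.2%, CHG levels 65.3% and 25.9%, and CG levels 87.8% and 57.2% (chromosome 4, 10189631 to 10189704).

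CG regions that were higher in rbp-ko-1 fell into 2 kinds by their non-CG partners. Of the 38 higher members, 18 had only higher partners and 20 had a lower CHH partner. All 10 higher members with a CHG partner had it higher, where 15.4% of all nuclear CHG regions were higher. Of the 31 with a CHH partner, 11 had it higher, where 2.72% of all nuclear CHH regions were higher.

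The 20 members of opposite direction lay where CG methylation was already high. Their median CG level was 83.3% in Col-0 (range 55.3 to 87.0%) against 89.98% in rbp-ko-1 (72.8 to 92.4%), and their median difference was 7.19 points. The CHH regions at the same places, 21 in number, had a median of 9.13% in Col-0 against 2.77% in rbp-ko-1. Their median ratio of 0.353 compares with 0.267 for the CHH pairs in which CG was lower. These members lay at a median distance of 1.72 Mb from a centromere, while the 18 with only higher partners lay at 3.21 Mb.

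An exon of AT1G59920 had the largest CG difference of this kind, with CG levels of 64.6% in Col-0 against 86.6% in rbp-ko-1 (chromosome 1, 22059681 to 22059800) and CHH levels of 7.21% and 2.23%. In the promoter of AT4G09200 a CG region of only 4 cytosines spread over 694 bp had 55.3% and 72.8% (chromosome 4, 5857146 to 5857839), and it overlapped 2 CHH regions with 6.84% and 1.499%, and 11.2% and 1.28%. The other members of this kind named by the fixed rule had CG gains of 7.49 to 10.4 points. In an exon and the 5′ UTR of AT3G43432 the CG region had 79.4% and 89.1% (chromosome 3, 15359910 to 15360033) inside a CHH region with 19.2% and 8.31%. A CG region of 11 cytosines in the promoter of AT1G43245, a SET-domain gene, had 80.6% and 88.8%. It shared 22 bp with a CHH region of 1642 bp with 12.1% and 4.95%. Another member in this promoter, added after its values were seen, went the other way. Its CG region of 33 cytosines lay wholly inside the same CHH region and had 90.5% and 85.7%. At UNE4 (AT2G12940), annotated as a basic-leucine zipper gene, and AT2G12935, CG levels were 84.1% and 91.8% and CHH levels 3.98% and 1.10%. The same pattern was found at AT5G05215, AT3G43870, AT3G60176 and the pair AT3G05825 and AT3G29633, where CHH levels were 6.26 to 11.7% in Col-0 and 2.65 to 4.12% in rbp-ko-1. The CG region at AT5G05215 shared only 4 bp with its CHH region of 317 bp.

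A sole lower member had a partner of opposite direction. An exon of SPCH (AT5G53210), the transcription factor gene that starts the stomatal lineage, had CG levels of 59.9% in Col-0 against 40.6% in rbp-ko-1 (chromosome 5, 21587920 to 21587992). Its CHG region had 1.79% and 6.06%, each region with 9 cytosines.

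The 18 members that were higher together with their partners started from lower CG levels. Their medians were 33.0% in Col-0 against 64.4% in rbp-ko-1, with a median difference of 24.7 points. The overlapping CHG regions had medians of 7.89% and 29.4% (10 pairs) and the CHH regions 4.33% and 11.8% (11 pairs).

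AT3G28720, a transmembrane protein gene, had the largest gain. Around its transcription start, in the promoter, 5′ UTR and exon, CG methylation was 39.1% in Col-0 against 80.1% in rbp-ko-1 (chromosome 3, 10781954 to 10782107). CHG methylation was 11.6% and 35.2% there, and CHH methylation 4.60% and 11.9%. PBRP2 (AT3G29380), a plant-specific relative of the transcription factor TFIIB, was also higher in every context at its promoter (chromosome 3, 11283740 to 11283951), with CG levels of 34.6% and 65.1%, CHG levels of 15.5% and 39.9% and CHH levels of 8.86% and 19.2%. The last member higher in all contexts, chosen after its values were seen, lay in the promoter of ABH1 (AT2G13540), the large subunit gene of the nuclear cap-binding complex. Its CG levels were 64.8% and 86.4%, its CHG levels 32.96% and 52.8%, and its CHH levels 16.9% and 32.05% (chromosome 2, 5636732 to 5636836).

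Other gains paired CG with CHG or CHH alone. The promoter of ERF2 (AT5G47220), an ethylene-responsive transcription factor gene, had CG levels of 40.5% and 75.7% (chromosome 5, 19174534 to 19174739) and CHG levels of 4.60% and 40.9%, which made it the member with the largest CHG gain. At AGP9 (AT2G14890), an arabinogalactan protein gene, 2 promoter CG regions shared 1 CHG region with 5.13% and 23.5%. The CG regions had 6.76% and 32.1% (chromosome 2, 6397825 to 6397973) and 31.4% and 68.0% (6397692 to 6397768). The promoter of the zinc finger gene AT5G46660 had 29.9% and 63.7% in CG and 6.95% and 18.3% in CHH (chromosome 5, 18931512 to 18931572). In an exon and 3′ UTR of AT3G28780, a CG region with 13.0% and 44.9% (chromosome 3, 10806055 to 10806250) shared 5 bp with a CHG region with 8.38% and 16.5%.

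**Figure D4:**
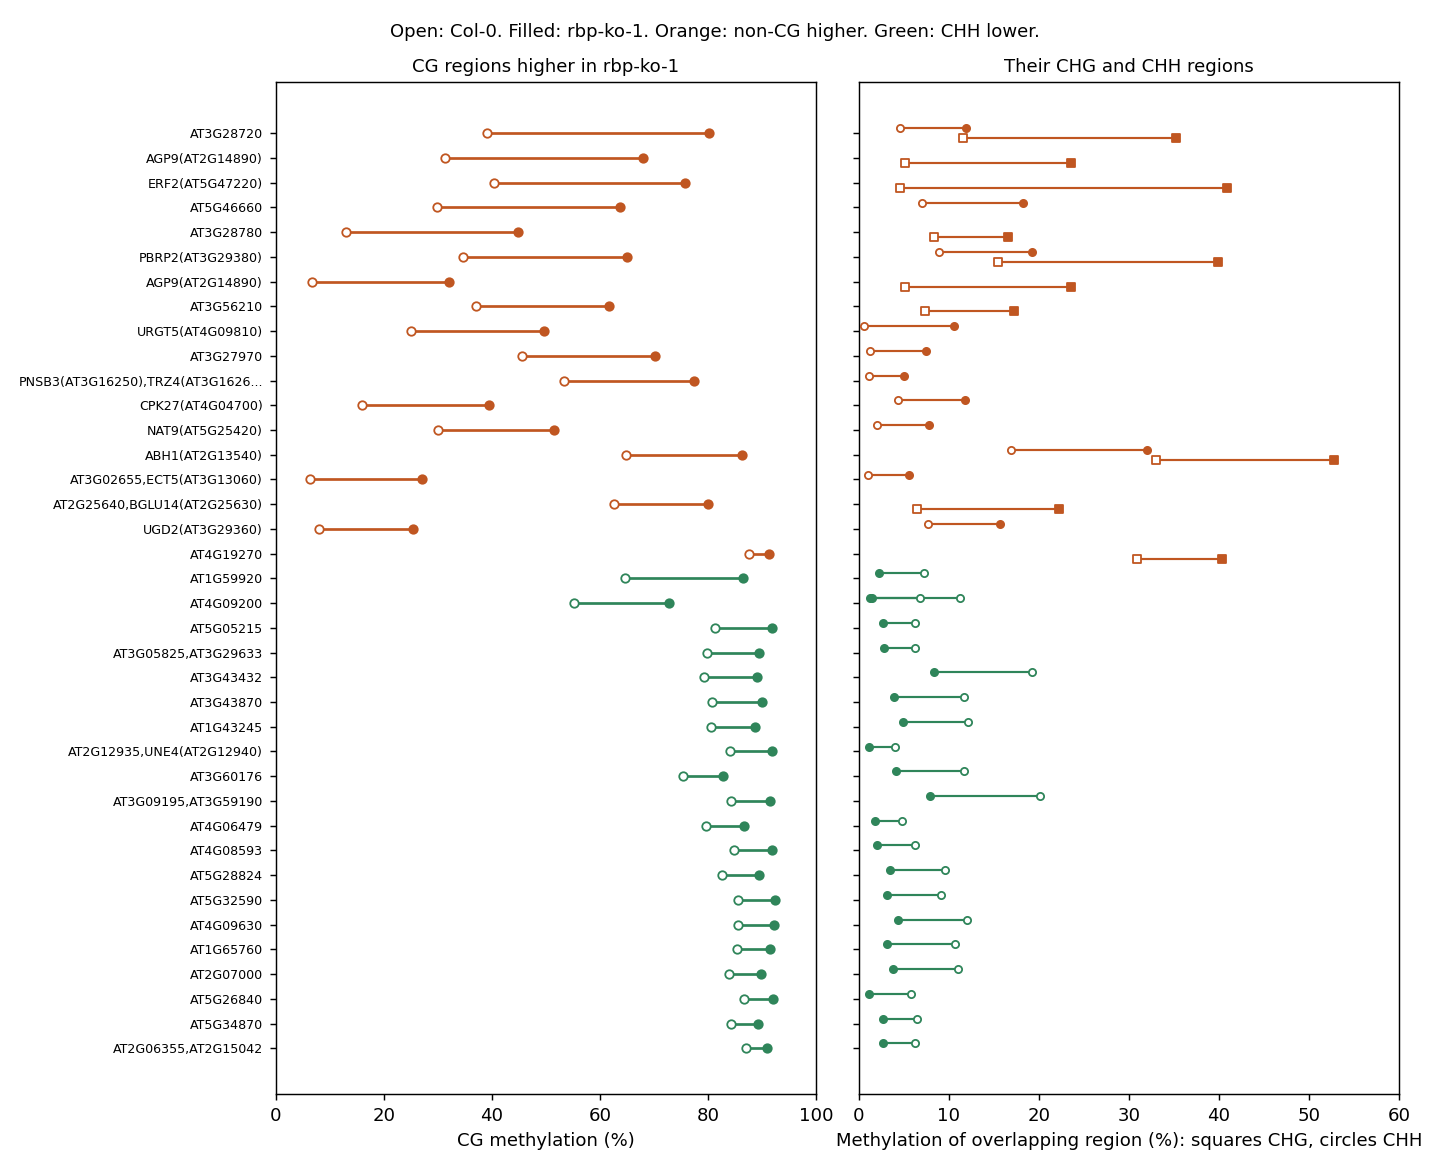
The 38 CG regions higher in rbp-ko-1, 1 per line and named by annotated gene: CG methylation (left, %) and methylation of the overlapping CHG (squares) and CHH (circles) regions (right, %), open for Col-0 and filled for rbp-ko-1. In 18 regions (orange) the non-CG level was higher too, from CG levels of 6.31 to 87.6% in Col-0; in 20 (green) CHH was lower and CG was 55.3% or more in Col-0.

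Most members were annotated to a promoter. A promoter was annotated at 191 of 241 members (79.3%) and at 1235 of the 2374 CG regions with no non-CG overlap (52.0%), and it was the sole feature at 136 (56.4%) and 396 (16.7%). Exons were annotated at 98 members (40.7%) and 1901 others (80.1%), and introns at 31 (12.9%) and 541 (22.8%). Transcription start sites were annotated at 17 members (7.05%) and 36 others (1.52%). Members thus lay mostly beside genes and the other CG regions mostly in them, in a table that lists only regions annotated to a gene. Lower members were highly methylated in Col-0 in both places. The 113 lower members in promoters alone had medians of 71.8% in Col-0 against 35.9% in rbp-ko-1, and the 39 with no promoter annotation 75.2% and 50.3%. The median differences were -25.0 and -19.97 points.

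Members also lay closer to the centromeres, which repeats and transposons surround. Within 3 Mb of a centromere lay 101 members (41.9%) and 395 of the other CG regions (16.6%), and within 1 Mb 24 (9.96%) and 35 (1.47%). The median distance was 3.599 Mb for members and 6.86 Mb for the others. Lower members within 3 Mb had medians of 79.6% in Col-0 against 50.6% in rbp-ko-1, and those farther out 63.9% and 32.3%. The median differences were -18.8 points within 3 Mb and -23.8 points farther out. All 5 chromosomes held members, from 36 on chromosome 2 to 69 on chromosome 3.

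**Figure D5:**
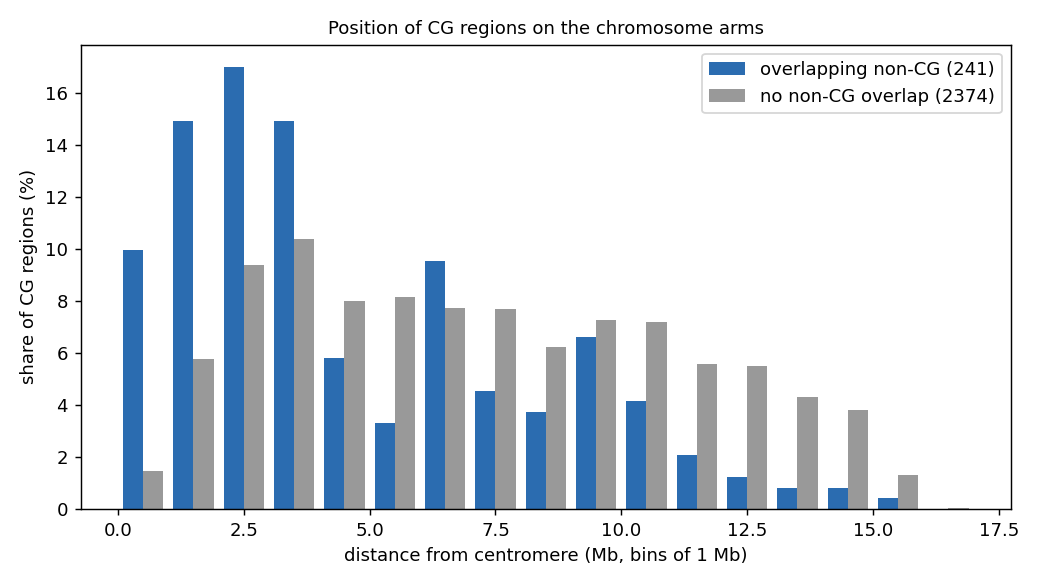
Share of CG regions (y axis, %) by distance from the centromere (x axis, Mb, bins of 1 Mb) for the 241 members (blue) and the 2374 nuclear CG regions with no non-CG overlap (grey). Of the members 41.9% lay within 3 Mb, against 16.6% of the others.

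The 241 members touched 346 gene IDs, of which 312 were found in the RefSeq gene table (assembly TAIR10.1). Of those 312, 249 were protein-coding and 40 were long non-coding RNA genes. Ribosomal RNA genes, chosen for description after their values were seen, were annotated at 12 members, all lower, where 84.2% of all members and 72.4% of nuclear CG regions were. Of the 12, 7 are neighbouring pieces of a pair of 45S ribosomal RNA units. Further members lay beside these pieces without such an annotation and are not among the 12. They lay on chromosome 2 (1006 to 1544) and on chromosome 3 (14193706 to 14194155, and 14194393 to 14195511). Another of the 12, annotated to promoters of 5S ribosomal RNA genes, lay in the same stretch of chromosome 3 (14191728 to 14192734). Its CG levels were 36.2% and 17.1%, near the 32.7% and 17.0% of the region from 14194393. The other members at 5S genes had 79.8 to 89.2% in Col-0. Ribosomal RNA genes occur in many near-identical copies, so reads cannot be assigned to 1 copy and these values are uncertain. The longest ones lay in these units, on chromosomes 2 and 3. A CG region of 1877 bp and 290 cytosines on chromosome 3 (14195871 to 14197747) had 71.6% in Col-0 against 56.98% in rbp-ko-1, and a region of 1159 bp on chromosome 2 (1904 to 3062) had 69.1% and 55.2%. A CHH region over the former had 5.05% and 1.54%. At 5S ribosomal RNA genes CG levels were 83.9% and 35.8% at the member with the largest difference (chromosome 3, 13850440 to 13850503) and 89.2% and 84.8% at the one with the smallest (chromosome 5, 12866959 to 12867019).

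No member was annotated to any of 67 listed genes of methylation and flowering. Of the 37887 RefSeq genes on chromosomes 1 to 5, 312 (0.824%) had a member, so a list of this size is too short for the absence to be read. The lists held 30 genes of RNA-directed DNA methylation, 15 of methylation maintenance and removal, 7 loci silenced by methylation and 15 flowering-time genes. Nuclear CG regions without non-CG overlap were annotated at 8, 1, 1 and 5 of them, and nuclear CG regions of any kind at 9.22% of the RefSeq genes. RBP45D had no region of any context.

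The rule separated neighbours that differ little in place. Just inside it, the AGP9 region at 6397692 shared 2 bp with its CHG region, and a region at AT2G34100 with 89.97% in Col-0 against 85.9% in rbp-ko-1 shared 3 bp. Just outside, a CG region at BGLU14 and AT2G25640 with 4.60% and 29.9% touched a CHG region with 6.49% and 22.2% without sharing a base. A region at the fatty acid elongation gene KCS21 (AT5G49070) with 81.3% and 75.04% lay 4 bp from a CHH region. Among lower regions, Col-0 levels near but not in a non-CG region were between those of members and of distant regions. The median Col-0 level of lower CG regions was 71.8% at members, 43.95% at a gap of up to 100 bp (23 regions), 50.8% from there to 500 bp (54), 35.2% from there to 2000 bp (148) and 25.7% beyond (1465). Among higher regions the order was not the same, with medians of 70.1%, 65.2%, 35.3%, 23.3% and 30.4%. The share of regions with the direction of the nearest non-CG region was 91.3% at members, and 63.2%, 70.3%, 69.5% and 68.1% in the other classes, in the same order. Most non-CG regions were lower, so this share stood near that of lower CG regions. The latter was 84.2%, 60.5%, 73.0%, 75.1% and 70.9%, and agreement with a neighbour beyond it was not tested.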

How the data were processed

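DNA methylation was measured in 3 libraries each of Col-0 and rbp-ko-1. The tools named per the submitters' processing notes are Bismark, MethylDackel, Trimmomatic and FastQC, and the build is TAIR10. Not given in the sources used here are the region caller, its thresholds, the gene annotation and conversion rates. Unconverted cytosines would be read as methylated, which weighs most on low CHH levels. The authors deposited levels as a fraction, 1 mean per genotype and region, shown here in percent, and an area statistic, a score used only in an alternative.

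Of 18828 entries, 1 was kept per region and context. Differences are rbp-ko-1 minus Col-0 in percentage points, computed from the means, and ratios are rbp-ko-1 over Col-0. Overlaps were computed with pandas 2.3.3 and checked on simulated intervals. Centromeres were taken at 15, 3.6, 14, 4.0 and 12 Mb, with distance from the region's midpoint. With no values per library, no test, replicate error or depth could be given, and the planned fit per library was not run. Exact 95% binomial intervals (for the median, of order statistics) were used only to judge whether an alternative moved a value, and they cover counting error only. Members and gene lists were chosen with earlier results of these data known.

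Named members were the 10 lower and 6 higher ones with the largest absolute CG difference among those of at least 10 cytosines, the 10 largest with both CHG and CHH partners, the 10 largest with an opposite partner, the 5 with the highest CHH level in Col-0 in a CHH region of at least 10 cytosines, and any at a listed gene. Other named members were chosen after their values were seen, as stated.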

Additional observations from a re-analysis of the deposited data

How the results depend on the processing

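No paired analysis was possible because the table holds 1 mean per genotype and no values per library, and leaving out a replicate could not be run for the same reason. The share of lower members and the share with a promoter stayed within their 95% intervals under every alternative run (82.7 to 88.0% and 76.1 to 83.1%). With an absolute CG difference of at least 20 points, 129 members were left, with a median lower difference of -30.01 points, 99.2% in the direction of all partners and 33.3% within 3 Mb of a centromere. Regions of at least 10 cytosines numbered 149, with a median lower difference of -18.5 points. Of the 148 members with the larger area statistic, 96.6% had the direction of all partners. With CHG partners only there were 67 members, a median of -27.8 points and 98.5% in the direction of all partners. Partners that differ by at least 5 points left 156 members. Keeping the chromosome 2 copy gave a median of -18.9 points and 57.1% within 3 Mb. Within 2 Mb of a centromere lay 24.9%. The other 41 values, among them all 6 without ribosomal RNA genes (an alternative chosen after seeing the data), stayed within 1.5 times the number of members or within the 95% interval of the share or median. Keeping the chromosome 2 copy gave 326 members. Coverage is unknown, so what depth limits could not be judged.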

Other observations

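Several members with almost complete CG loss, chosen after their values were seen, lay at genes not named above. At MVK (AT5G27450), the mevalonate kinase gene of isoprenoid synthesis, and AT5G27430, CG methylation was 26.6% in Col-0 against 1.29% in rbp-ko-1 over 8 cytosines (chromosome 5, 9688332 to 9688453). The region lay inside a CHG region with 17.5% and 0.246% and a CHH region with 8.84% and 0.174%. In the promoter of the receptor-like kinase gene CRK42 (AT5G40380) and AT5G40370, CG levels were 24.7% and 0.895% (chromosome 5, 16149493 to 16149668), CHG levels 9.75% and 0.443%, and CHH levels 19.5% and 0.211%. CHH methylation was thus higher than CHG methylation in Col-0 there, and no context reached 1% in rbp-ko-1. At LHW (AT2G27230), a transcription factor gene of vascular development, and AT2G27229, a CG region of 30 cytosines had 20.1% and 1.10% (chromosome 2, 11649102 to 11649568) and its CHH region 10.3% and 0.137%.

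The gain with the largest CHH ratio lay in the promoter of URGT5 (AT4G09810), a nucleotide sugar transporter gene. CHH methylation was 0.581% in Col-0 against 10.5% in rbp-ko-1, a ratio of 18.1, and CG methylation 25.02% and 49.7% (chromosome 4, 6177820 to 6177923). This Col-0 level was the lowest of all 216 CHH pairs. With conversion rates unknown, the size of the ratio is uncertain.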
